A study of Mus musculus with 12 samples.

Results

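The genes described here are the nuclear genes for subunits of the mitochondrial respiratory chain and ATP synthase, chosen by symbol from the mouse annotation: every gene whose symbol is Nduf with an a, ab, b, c, s or v and a number, or begins with Uqcr, Sdh with a, b, c or d, Cox with a number from 4 to 8, or Atp5. They number 86 of the 55335 annotated genes, with 36 for complex I, 4 for complex II, 8 for complex III, 20 for complex IV and 18 for complex V. Ndufa4 was placed in complex IV, where its protein is found. Atp5o is annotated under 2 gene IDs. The RNA came from muscle stem cells (MuSCs), sorted as ZsGreen+ cells from the hindlimb of Pax7-ZsGreen mice of 3 to 6 months, a line that carries a green fluorescent reporter under the control of Pax7, so that all 4 groups carry the reporter. Each group had 3 libraries. F cells were freshly isolated and lysed at sorting. The 2d-U cells were cultured for 2 days without compression on plastic coated with Matrigel and fibronectin, in a growth medium with FGF, serum and chicken embryo extract. For 5d-U the same culture went on to 5 days. The 2+3d-C cells had 2 days uncompressed followed by 3 days under a PDMS device with pillars that limits the height of the cells. The study asked what pressing on the apical surface does to activated MuSCs, and 2+3d-C and 5d-U have the same total time in culture.

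Oxidative phosphorylation passes electrons from NADH and succinate to oxygen and uses the proton gradient that results to make ATP. Complex I oxidises NADH, complex II oxidises succinate, complex III passes electrons from ubiquinol to cytochrome c, complex IV passes them to oxygen, and complex V is the ATP synthase. Complexes I, III, IV and V are built from nuclear and mitochondrial gene products together, whereas complex II is encoded wholly in the nucleus. Quiescent MuSCs are known as cells with few mitochondria, and both activation and differentiation into muscle are known for a rise in mitochondrial content. Several nuclear subunits of complex IV have isoforms that are made mainly in striated muscle, smooth muscle and lung, or testis.

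Of the 86 members, 84 had enough reads to be tested. Cox8c and the shorter of the Atp5o entries (ENSMUSG00000116933.1, with 0 reads in all 12 libraries) were not. A library had 12540745 to 62424851 reads on genes. Of the members 79 to 85 members had more than 3 reads in a library. Levels are RPKM, reads per kilobase of annotated exon relative to the library size after TMM scaling. Libraries are in the order of replicates 1, 4 and 5 for F, 1, 2 and 3 for 2d-U, 1, 2 and 6 for 5d-U and 4, 5 and 10 for 2+3d-C. The annotated exon length merges all transcripts of a gene, so that levels of different genes compare only roughly. For 16 members, over 20 percent of the stretches of 75 bases in their mRNA also occur in another gene, among them Atp5l (76.0 percent), Atp5g2 (35.8 percent) and Ndufb4 (35.2 percent), and their levels are uncertain to that extent. Genes that share exon sequence with a neighbour, as Ndufb6 does over 39.0 percent of its length, are uncertain too, since reads were counted without regard to strand.

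Groups were compared with edgeR's quasi-likelihood test fitted to all 12 libraries, with Benjamini-Hochberg adjustment over 22635 genes, and a gene is said to have risen or fallen where the adjusted p was under 0.05. Errors of fold changes are standard errors, and n = 3 libraries per group throughout. By the study's account the cells of each sort were divided over the conditions, but the sources used here do not say which libraries share a sort or animals. These p-values therefore measure the spread between the libraries, which may be technical in part. The 2+3d-C libraries share replicate numbers 4 and 5 with F and no number with 5d-U or 2d-U. If the numbers mark sorts, compression cannot be told apart from the sort in comparisons with 5d-U and 2d-U.

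Libraries within groups were not alike. F replicates 4 and 5 and 5d-U replicate 1 carried 5.12, 7.24 and 3.84 reads per kilobase over 1853 autosomal genes of families that are silent in muscle, such as olfactory receptors. The value was 0.641 in 5d-U replicate 6 and 0.00967 to 0.229 elsewhere. Genes that mark other cells of muscle differed between groups as well. The 10 mature myofiber genes summed to 47.8, 3039 and 2028 CPM in F, 90.1, 95.2 and 55.3 CPM in 2d-U, 169, 2006 and 3674 CPM in 5d-U, and 103, 224 and 111 CPM in 2+3d-C. F replicates 4 and 5 and 5d-U replicates 2 and 6 stood far above the other libraries, and Myh1, Myh2 and Myh4 were at 0 in 2d-U. These pairs of libraries differed within the list. F replicates 4 and 5 had 7215 and 6044 reads of Ckm, 1800 and 4369 of Myh4 and 2497 and 4622 of Pvalb, whereas 5d-U replicates 2 and 6 had 256 and 197 reads of Ckm, 1 and 13 of Myh4 and 4 and 15 of Pvalb. In the 5d-U pair the sum came mainly from Acta1, Mylpf and Tnnt3, genes of the contractile apparatus. All 8 fibroadipogenic genes were present in F, 5d-U and 2+3d-C, summing to 4602 to 28881 CPM in F, 51.3 to 71.9 CPM in 2d-U, 112 to 141 CPM in 5d-U, and 2225 to 3977 CPM in 2+3d-C, with Col15a1, Dpt, Lum, Mfap5 and Pdgfra at 0 in 2d-U. Endothelial genes (8, Flt1 at 0 in 2d-U) summed to 1209 to 1732 CPM in F, 11.2 to 13.9 CPM in 2d-U, 7.87 to 40.8 CPM in 5d-U, and 257 to 288 CPM in 2+3d-C. Immune genes (8, with Ptprc and Adgre1 at 0 in 2d-U and 2+3d-C) summed to 813 to 2909 CPM in F, 0.708 to 2.23 CPM in 2d-U, 1.5 to 140.0 CPM in 5d-U, and 37 to 137 CPM in 2+3d-C. Smooth muscle or pericyte genes (8, with Myh11, Rgs5 and Pdgfrb among 5 at 0 in 2d-U) summed to 799 to 1070.2 CPM in F, 62.9 to 88.1 CPM in 2d-U, 63.1 to 731 CPM in 5d-U, and 277 to 443 CPM in 2+3d-C. Glial genes (6) summed to 444 to 756 CPM in F, 2.17 to 2.62 CPM in 2d-U, 5.85 to 14.1 CPM in 5d-U, and 183 to 611 CPM in 2+3d-C. Erythroid genes (6) summed to 161 to 683 CPM in F, 0.117 to 0.199 CPM in 2d-U, 0.139 to 0.488 CPM in 5d-U, and 27.3 to 317 CPM in 2+3d-C. Adipocyte genes (6, with Adipoq and Plin1 among 5 at 0 in 2d-U) summed to 357 to 1182 CPM in F, 0.665 to 0.736 CPM in 2d-U, 0.557 to 5.82 CPM in 5d-U, and 68.5 to 226 CPM in 2+3d-C. The 10 genes that mark MuSCs each had more than 3 reads in at least 1 library of every group. They summed to 3146 to 7856 CPM in F, 2621 to 3089 CPM in 2d-U, 2546 to 3825 CPM in 5d-U, and 15855 to 17753 CPM in 2+3d-C. The highest in 2+3d-C were Myod1, Sdc4 and Vcam1. Myod1, whose protein the study takes as a mark of progenitors and committed cells, had 275321, 70065 and 91039 reads there. The sum is thus not a measure of the stem cell state alone. The highest in 2d-U and 5d-U were Myod1, Des and Itga7, whereas Calcr had 8, 0 and 0 reads in 2d-U and 28, 0 and 3 reads in 5d-U. In 2d-U against F 1 of the 10 rose and 4 fell (10.6 and 33.3 percent of all genes). The part of other cells in the results below was not tested, and in bulk RNA a change in the share of a cell type cannot be told from a change within cells.

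Nuclear respiratory genes are known to share a few promoter elements, those for the factors NRF1, GABPA of the ETS family, and YY1. The 300-base promoters of the members (250 bases before to 50 after the start, RefSeq on GRCm38.p6) were available for 68 of 85 symbols and were searched on both strands for the letters of these elements. The NRF1 letters GCGCATGCG, which overlap their own reverse complement, occurred in 8 of the 68 (11.8 percent, against 1.95 percent of 27025 genes), namely Ndufa8, Ndufa11, Uqcr11, Uqcrc1, Cox6a1, Atp5g2, Atp5k and Atp5l. The ETS letters CCGGAAG occurred in 17 (25 against 9.93 percent) and the YY1 letters AAGATGGCG in 7 (10.3 against 1.64 percent). Among the 14403 tested genes outside the set the shares were 3.12, 15.42 and 2.58 percent. The 5 stretches of 60 bases below lie before the start and are shown because they hold these letters, in capitals, in members of complexes I, IV and V: NRF1 in the first 4, and YY1 and then ETS in Atp5j, a peripheral stalk subunit.
Ndufa11 (GRCm38.p6 chr17:56717677-56717736, plus strand): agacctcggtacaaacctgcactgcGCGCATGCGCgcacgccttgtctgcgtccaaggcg
Cox6a1 (GRCm38.p6 chr5:115349086-115349145, minus strand): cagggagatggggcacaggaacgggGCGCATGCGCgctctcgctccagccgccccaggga
Atp5k (GRCm38.p6 chr5:108434415-108434474, minus strand): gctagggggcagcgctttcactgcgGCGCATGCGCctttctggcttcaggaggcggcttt
Atp5g2 (GRCm38.p6 chr15:102671055-102671114, minus strand): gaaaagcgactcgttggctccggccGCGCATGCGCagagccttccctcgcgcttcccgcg
Atp5j (GRCm38.p6 chr16:84835030-84835089, minus strand): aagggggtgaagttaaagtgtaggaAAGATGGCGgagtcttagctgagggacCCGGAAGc
In 2+3d-C against 5d-U the median log2 fold change was -2.67 for the 8 members with the NRF1 letters and -2.66 for the 59 tested without them. For the ETS letters the medians were -2.83 (n = 17) and -2.62 (n = 50), and for YY1 -2.87 (n = 7) and -2.63 (n = 60). Ndufa11, an accessory subunit of complex I, had 61.6, 101 and 304 RPKM in 5d-U against 11.6, 59.2 and 15.8 RPKM in 2+3d-C (log2 fold change -2.43 ± 0.66, edgeR adjusted p = 0.017), a call lost without 5d-U replicate 6, without 2+3d-C replicate 4 or 10, and with a trend on mRNA length removed. Atp5j had 106, 163 and 394 RPKM in 5d-U against 15.4, 51.6 and 23.5 RPKM in 2+3d-C (log2 fold change -2.87 ± 0.60, edgeR adjusted p = 0.00364), which was lost with that trend removed. The values of Cox6a1, Atp5k and Atp5g2 are given with their complexes.

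The share of a library's reads that fell on the members changed several-fold over the groups. It was 0.705, 0.686 and 0.521 percent in F, 1.88, 2.08 and 1.87 percent in 2d-U, 1.93, 2.88 and 3.89 percent in 5d-U, while 2+3d-C had 0.508, 0.887 and 0.738 percent. The uncompressed cultures did not overlap with F or 2+3d-C, and the ranges of F and 2+3d-C overlapped. Among the 5d-U libraries the share was lowest in replicate 1 and highest in replicate 6, and replicate 1 lay within the range of 2d-U. Complex V took the largest part of the member reads in every library, 0.269 to 0.334 percent of all reads in F and 0.826 to 1.27 percent in 5d-U, and complex II, with 4 genes, 0.0402 to 0.0637 percent in F and 0.149 to 0.363 percent in 5d-U. With reads on mitochondrial genes left out of the denominator, the mean share of each complex in each group moved by less than its SD.

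**Figure D1:**
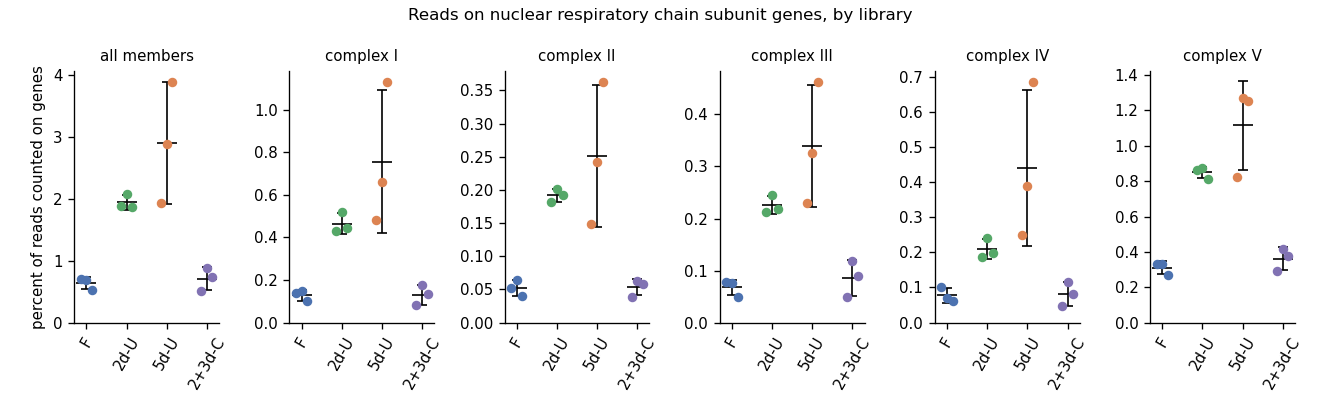
Percent of the reads counted on genes that fell on all 86 members and on the members of each complex, with a point for each library and bars for the mean and SD of 3 libraries; each panel has its own vertical axis, starting at 0. In the panel of all members F and 2+3d-C lie between 0.508 and 0.887 percent and the uncompressed cultures between 1.87 and 3.89 percent.

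Between isolation and 2 days of culture most members rose. In 2d-U against F, 49 of 84 rose and 4 fell, where 10.6 percent of all genes tested rose and 33.3 percent fell. Their median log2 fold change was 1.53, or 2.89-fold, against a median of -1.63 over all genes tested and of -0.11 over the 12559 genes in the same range of levels. The members that rose were 26 of 36 in complex I, 3 of 4 in complex II, 6 of 8 in complex III, 5 of 19 in complex IV and 9 of 17 in complex V, and the 4 that fell were the alternative complex IV isoforms Cox4i2, Cox6a2, Cox6b2 and Cox8b. The count of members that rose depended on F replicates 4 and 5. It was 26 of 85 without replicate 4, when 1552 of 23830 genes rose, and 8 of 83 without replicate 5, when 1276 of 22743 rose. With a model term for libraries with many reads on silent families, 15 of 84 members and 1271 of 22635 genes rose. Without 2d-U replicates 1, 2 and 3 the count was 29 of 83, 22 of 85 and 31 of 83. The genes that rose were then 1551 of 27091, 1544 of 27915 and 1577 of 27070. Without both F replicates 4 and 5, which left a single F library, the median was 1.08 over the members and 0 over all genes. The median stayed at or above 1.08 in all of these.

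From 2 to 5 days without compression the fold changes of all tested members were above 0, but few passed. In 5d-U against 2d-U, 2 of 84 rose, Atp5g3 and Cox8b, and none fell (1.87 and 0.243 percent of all genes). An unadjusted p under 0.05 was found for 61 members, a count for which no share over all genes is given here. DESeq2 called 18 of 84 members and 2414 of 22635 genes higher. The median was 1.61 over the members and 1.13 over all genes. Leaving out each library in turn gave 1 to 19 calls, with 19 without 5d-U replicate 1. Without 5d-U replicates 2 and 6, which had the high sums of myofiber list genes, 1 library of 5d-U was left. The median was then 0.15 over the members and 1.83 over all genes. Against F, 76 of 84 members rose in 5d-U and none fell (11.6 and 8.9 percent of all genes), with a median of 2.98 or 7.89-fold, 13 calls when only 5d-U replicate 1 was kept, and 5 when only F replicate 1 was kept.

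Compression for 3 days was accompanied by low levels across all complexes. In 2+3d-C against 5d-U, 70 of 84 members fell and none rose, where 13.4 percent of all genes tested fell and 9.14 percent rose. Each of the 3 compressed libraries lay below each 5d-U library for 67 members (29.7 percent of all genes tested). The median log2 fold change was -2.64, or 6.22-fold lower, against -1.05 over all genes and -0.12 over genes in the same range of levels. The 70 were 34 of 36 members in complex I, 2 of 4 in complex II, 7 of 8 in complex III, 13 of 19 in complex IV and 14 of 17 in complex V. The 5d-U libraries with high sums of the myofiber list did not weigh alike. Without replicate 2 the count was 70 and the median -2.83, against -1.76 over all genes. Without replicate 6 the count was 46 and the median -1.88, against -1.36 over all genes. With neither replicate 2 nor 6, which left 1 library, the median was -1.35 over the members and -1.63 over all genes. The median of the members was thus not below that of all genes in that fit. With a smooth trend on mRNA length taken out of each library, 20 of 83 members fell and Cox4i2 rose, with a median of -0.98. In that fit 1606 of 16763 genes fell and 2734 rose, with a median of 0.05 over all genes. Those 20 were 8 in complex I, 1 in complex II, 2 in complex III, 3 in complex IV and 6 in complex V.

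The comparison with 2d-U, the state at which compression began, gave smaller differences. In 2+3d-C against 2d-U, 16 of 84 members fell and 3 rose (8.63 and 16 percent of all genes), with a median of -1.15 against 0.00 over all genes. The 3 that rose were Cox4i2, Cox6b2 and Cox8b. Libraries did not overlap for 52 members that were lower (17.4 percent of all genes). DESeq2 called 30 of 84 members lower and 3 higher, against 2780 and 4622 of 22635 genes. Library sizes without TMM gave 59 lower and 3 higher, against 3143 and 2540 of 22635 genes. With the trend on mRNA length taken out 15 of 83 members fell and 3 rose, against 1923 and 2736 of 16763 genes. The count of members that fell was 35 without 2+3d-C replicate 5, 3 without replicate 4 and 8 without replicate 10. It was 27 without 5d-U replicate 6, and 9, 3 and 10 without 2d-U replicates 1, 2 and 3. In these fits 1385 to 2037 of 27025 to 27915 genes fell.

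Between compressed and fresh cells 1 member passed the test, which does not show that the others had equal levels. In 2+3d-C against F, Cox6a2 fell and none rose (4.47 and 1.94 percent of all genes). An unadjusted p under 0.05 was found for 6 members, again without a share over all genes. DESeq2 called 1 member higher and 1 lower, against 831 and 3296 of 22635 genes. The median was 0.40, and it turned to -0.12 with library sizes without TMM, to -0.12 without 2+3d-C replicate 5 and to -0.03 with only F replicate 1, so that its sign depended on the setting. With the trend on mRNA length taken out, 11 of 83 members rose and 1 fell, with a median of 0.77. In that fit 2648 of 16763 genes rose and 1095 fell, with a median of 0.47 over all genes. The share of members that rose was thus not above that of all genes. The 11 included Ndufv1, Atp5a1, Atp5b, Uqcrc1, Sdhc and Sdhd.

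**Figure D2:**
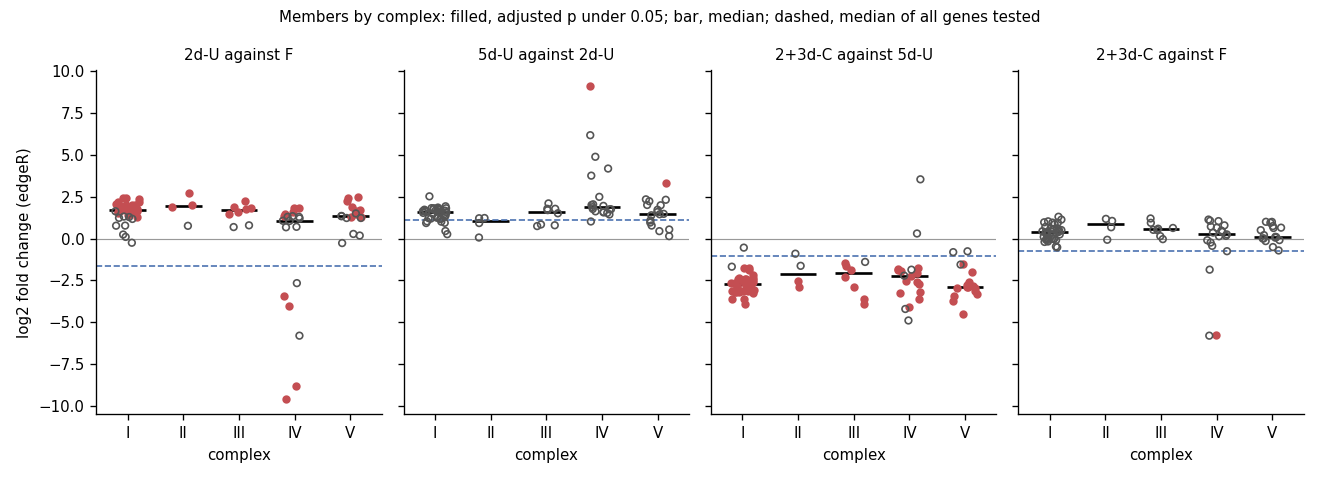
Log2 fold change of each tested member in 4 comparisons, by complex, with filled points for members past an adjusted p of 0.05, open points for the others, a bar for the median of the complex and a dashed line for the median of all 22635 genes tested. Members other than the alternative complex IV isoforms lie above the dashed line in 2d-U against F, and most members lie below it in 2+3d-C against 5d-U.

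Complex I takes its electrons through 7 nuclear core subunits, which hold the NADH site and iron-sulfur clusters, around which accessory subunits are packed. Of the core subunits 7 of 7 rose from F to 2d-U and 6 of 7 fell from 5d-U to 2+3d-C, with medians of 1.63 and -2.38. Among the 29 accessory subunits 19 rose and 28 fell, with medians of 1.71 and -2.80. Ndufs6 (ENSMUSG00000021606.8, mm10 chr13:73319838-73328542), an accessory subunit added late in assembly, had 15.6, 11.8 and 10.4 RPKM in F, 50.7, 69.2 and 49.7 RPKM in 2d-U, 90.3, 125 and 347 RPKM in 5d-U, and 6.13, 16 and 15.4 RPKM in 2+3d-C. All uncompressed cultures were above all F and compressed libraries. It fell from 5d-U to 2+3d-C (log2 fold change -3.91 ± 0.59, edgeR adjusted p = 0.000392) and from 2d-U to 2+3d-C (log2 fold change -2.18 ± 0.55, edgeR adjusted p = 0.0102). Ndufa12, an accessory subunit of the peripheral arm, had 14.8, 13.8 and 10.4 RPKM in F, 59.9, 85.8 and 65.7 RPKM in 2d-U, 82.2, 136 and 412 RPKM in 5d-U, and 13.3, 38.9 and 23.8 RPKM in 2+3d-C. It rose in 2d-U against F (log2 fold change 2.43 ± 0.57, edgeR adjusted p = 0.00601) and in 5d-U against F (log2 fold change 4.01 ± 0.61, edgeR adjusted p = 0.000521). The core subunit Ndufs7, which holds the last iron-sulfur cluster before ubiquinone, had 19.3, 30.5 and 17.2 RPKM in F, 118, 135 and 110.3 RPKM in 2d-U, 121, 148 and 467 RPKM in 5d-U, and 22, 82 and 28.1 RPKM in 2+3d-C. It rose in 2d-U against F (log2 fold change 2.44 ± 0.60, edgeR adjusted p = 0.0075), and 2+3d-C replicate 5 stood above the other compressed libraries.

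The core subunit Ndufs8, an iron-sulfur protein near the ubiquinone site, fell under compression. It had 153, 233 and 749 RPKM in 5d-U against 17.2, 60.1 and 40.5 RPKM in 2+3d-C (log2 fold change -3.27 ± 0.63, edgeR adjusted p = 0.00231). The groups did not overlap. The accessory subunit Ndufa3 had 43.1, 74.5 and 154 RPKM in 5d-U against 4.62, 9.08 and 8.57 RPKM in 2+3d-C (log2 fold change -3.61 ± 0.55, edgeR adjusted p = 0.000445). Ndufb5, another one, had 19.5, 33.1 and 85.3 RPKM in 5d-U against 3.45, 8.74 and 3 RPKM in 2+3d-C (log2 fold change -3.19 ± 0.58, edgeR adjusted p = 0.0015). Ndufs1, the largest core subunit, was less uneven within 5d-U, with 8.51, 9.38 and 6.61 RPKM in F, 24.3, 17.9 and 17.9 RPKM in 2d-U, 19.9, 36.3 and 16 RPKM in 5d-U, and 7.86, 6.89 and 7.02 RPKM in 2+3d-C. It fell in 2+3d-C against 5d-U (log2 fold change -1.73 ± 0.39, edgeR adjusted p = 0.00611). With the trend on mRNA length taken out this fall did not pass (edgeR adjusted p = 0.134), while those of Ndufs6, Ndufs8, Ndufa3 and Ndufb5 did. Ndufv1, which binds NADH and the flavin, was the core subunit without a call, at 39.1, 38.7 and 30.6 RPKM in F, 104, 94.8 and 86.2 RPKM in 2d-U, 98.7, 130.0 and 162 RPKM in 5d-U, and 53.7, 126 and 88.8 RPKM in 2+3d-C, with a log2 fold change of -0.54 ± 0.38 in 2+3d-C against 5d-U and of 1.31 ± 0.39 compared with F. Neither passed (edgeR adjusted p = 0.272 for the former and 0.0553 for the latter). Compressed libraries overlapped with both uncompressed groups and lay above F. With the trend on mRNA length taken out its log2 fold change against 5d-U was 0.46 and against F 1.96 ± 0.51, the latter with an edgeR adjusted p of 0.0150. The other member of complex I without a call was Ndufb2, at 3.53, 1.39 and 2.21 RPKM in F, 2.04, 2.02 and 1.96 RPKM in 2d-U, 3.3, 5.31 and 13.2 RPKM in 5d-U, and 3.26, 1.63 and 1.91 RPKM in 2+3d-C.

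In complex II, Sdhb and Sdhd, with shorter mRNAs, fell under compression, and Sdha and Sdhc, with mRNAs of 2900 and 3171 nt, did not pass. Sdhd, a membrane anchor that helps bind ubiquinone, had 47.8, 97.6 and 47.4 RPKM in F, 436, 436 and 418 RPKM in 2d-U, 415, 735 and 1882 RPKM in 5d-U, and 72.5, 207 and 122 RPKM in 2+3d-C. It rose in 2d-U (log2 fold change 2.74 ± 0.58, edgeR adjusted p = 0.00312) and in 5d-U against F (log2 fold change 3.97 ± 0.61, edgeR adjusted p = 0.000521). It fell in 2+3d-C against 5d-U (log2 fold change -2.91 ± 0.58, edgeR adjusted p = 0.00266). Sdhb, the iron-sulfur subunit, had 65.1, 58.6 and 28.8 RPKM in F, 183, 235 and 204 RPKM in 2d-U, 189, 327 and 929 RPKM in 5d-U, and 41.1, 139 and 64.9 RPKM in 2+3d-C. It rose in 2d-U (log2 fold change 2.03 ± 0.60, edgeR adjusted p = 0.0183) and fell in 2+3d-C against 5d-U (log2 fold change -2.56 ± 0.61, edgeR adjusted p = 0.00786). Sdhc, the other anchor, had 14.9, 19.9 and 13.7 RPKM in F, 59.7, 58.3 and 60.1 RPKM in 2d-U, 41.6, 65.2 and 233 RPKM in 5d-U, and 17.9, 59 and 33.2 RPKM in 2+3d-C. The rise in 2d-U passed (log2 fold change 1.88 ± 0.59, edgeR adjusted p = 0.0242), whereas 2+3d-C against 5d-U had log2 fold change -1.63 ± 0.58, edgeR adjusted p = 0.0577. Sdha, the flavoprotein that oxidises succinate, had 69, 51.4 and 40.1 RPKM in F, 97.1, 83.3 and 92.5 RPKM in 2d-U, 68.2, 153 and 64 RPKM in 5d-U, and 53.3, 46.5 and 53.3 RPKM in 2+3d-C. It passed in none of the 6 comparisons, with 0.77 ± 0.40 in 2d-U against F and -0.90 ± 0.40 in 2+3d-C against 5d-U. The highest library was 5d-U replicate 2. All 2d-U libraries lay above those of F and 2+3d-C and above the remaining 5d-U libraries. Without F replicate 5 the rises of Sdhb and Sdhc in 2d-U did not pass, and with the trend on mRNA length taken out the fall of Sdhd passed and that of Sdhb did not (edgeR adjusted p = 0.145).

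Complex III divided by role in size of change. The core proteins Uqcrc1 and Uqcrc2 and the Rieske iron-sulfur protein Uqcrfs1 had a median of -1.47 in 2+3d-C against 5d-U, with 2 of 3 called, and the 5 small accessory subunits -2.90, with 5 of 5 called. Uqcr11 (ENSMUSG00000020163.12, mm10 chr10:80402997-80406830) had 27.6, 40.4 and 20.4 RPKM in F, 119, 174 and 133 RPKM in 2d-U, 147, 331 and 993 RPKM in 5d-U, and 12.5, 45.3 and 40.5 RPKM in 2+3d-C. No compressed library reached any 5d-U library (log2 fold change -3.91 ± 0.69, edgeR adjusted p = 0.00126). It rose in 2d-U (log2 fold change 2.27 ± 0.64, edgeR adjusted p = 0.0156) and in 5d-U (log2 fold change 4.06 ± 0.70, edgeR adjusted p = 0.00102) against F. Uqcr10, also a small subunit, had 269, 467 and 1158 RPKM in 5d-U against 28.6, 80.3 and 43.9 RPKM in 2+3d-C (log2 fold change -3.64 ± 0.61, edgeR adjusted p = 0.000835). Uqcrq had 113, 178 and 437 RPKM in 5d-U against 13.8, 52.1 and 31.8 RPKM in 2+3d-C (log2 fold change -2.90 ± 0.57, edgeR adjusted p = 0.00262). Uqcrc1 had 49.9, 60.7 and 36.1 RPKM in F, 176, 173 and 162 RPKM in 2d-U, 170.4, 254 and 465 RPKM in 5d-U, and 53.4, 183 and 102 RPKM in 2+3d-C. The rise from F to 2d-U passed (log2 fold change 1.80 ± 0.49, edgeR adjusted p = 0.0127). Compressed libraries had log2 fold change -1.39 ± 0.48, edgeR adjusted p = 0.0507 compared with 5d-U, and log2 fold change 1.21 ± 0.48, edgeR adjusted p = 0.108 compared with F. Without F replicate 5 the rises of Uqcr11 and Uqcrc1 in 2d-U did not pass. With the trend on mRNA length taken out Uqcr10 and Uqcr11 still fell in 2+3d-C against 5d-U, and Uqcrq did not pass (edgeR adjusted p = 0.0737).

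In complex IV the 11 general subunits changed together. All 11 fell in 2+3d-C against 5d-U and all 11 rose in 5d-U against F, with medians of -2.52 and 2.97, and 4 rose in 2d-U against F. With the trend on mRNA length taken out, only Cox6b1, Cox7b and Ndufa4 of the 11 fell in 2+3d-C against 5d-U and 6 rose in 5d-U against F, and the median of the tested members of complex IV in 2+3d-C against 5d-U was -0.29. Ndufa4 had 49, 31.8 and 19.1 RPKM in F, 109, 142 and 109 RPKM in 2d-U, 162, 334 and 956 RPKM in 5d-U, and 14.5, 51.1 and 19.6 RPKM in 2+3d-C. Its 5d-U libraries were all above those of the other groups, and it fell in 2+3d-C against 5d-U (log2 fold change -4.09 ± 0.69, edgeR adjusted p = 0.000952) and against 2d-U (log2 fold change -2.08 ± 0.64, edgeR adjusted p = 0.028), the latter call being lost without 2d-U replicate 2 or 2+3d-C replicate 4 or 10. Cox7b had 106, 209.8 and 481 RPKM in 5d-U against 11.7, 37 and 17.3 RPKM in 2+3d-C (log2 fold change -3.60 ± 0.62, edgeR adjusted p = 0.00113). Cox6b1, on the side of cytochrome c, had 269, 546 and 1360.3 RPKM in 5d-U against 38.4, 113 and 77.8 RPKM in 2+3d-C (log2 fold change -3.25 ± 0.57, edgeR adjusted p = 0.00125). Cox4i1, the general form of the largest nuclear subunit, had 184, 97.3 and 91.7 RPKM in F, 250.1, 284 and 241 RPKM in 2d-U, 318, 489 and 1493 RPKM in 5d-U, and 113, 356 and 177 RPKM in 2+3d-C. The highest compressed library lay above the lowest 5d-U library, and the fall was log2 fold change -1.83 ± 0.58, edgeR adjusted p = 0.0346. Cox8a had 310.3, 618 and 1331 RPKM in 5d-U against 72.4, 206 and 103 RPKM in 2+3d-C (log2 fold change -2.57 ± 0.54, edgeR adjusted p = 0.00396). Cox6a1, whose promoter is shown above, had 385, 612 and 1618 RPKM in 5d-U against 113, 413 and 168 RPKM in 2+3d-C (log2 fold change -1.92 ± 0.57, edgeR adjusted p = 0.0262). The calls of Cox4i1 and Cox6a1 were lost without 5d-U replicate 6 and without 2+3d-C replicate 4 or 10, and their log2 fold changes were -0.02 and -0.05 with the trend on mRNA length taken out, when Cox8a had -0.68 and did not pass.

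**Figure D3:**
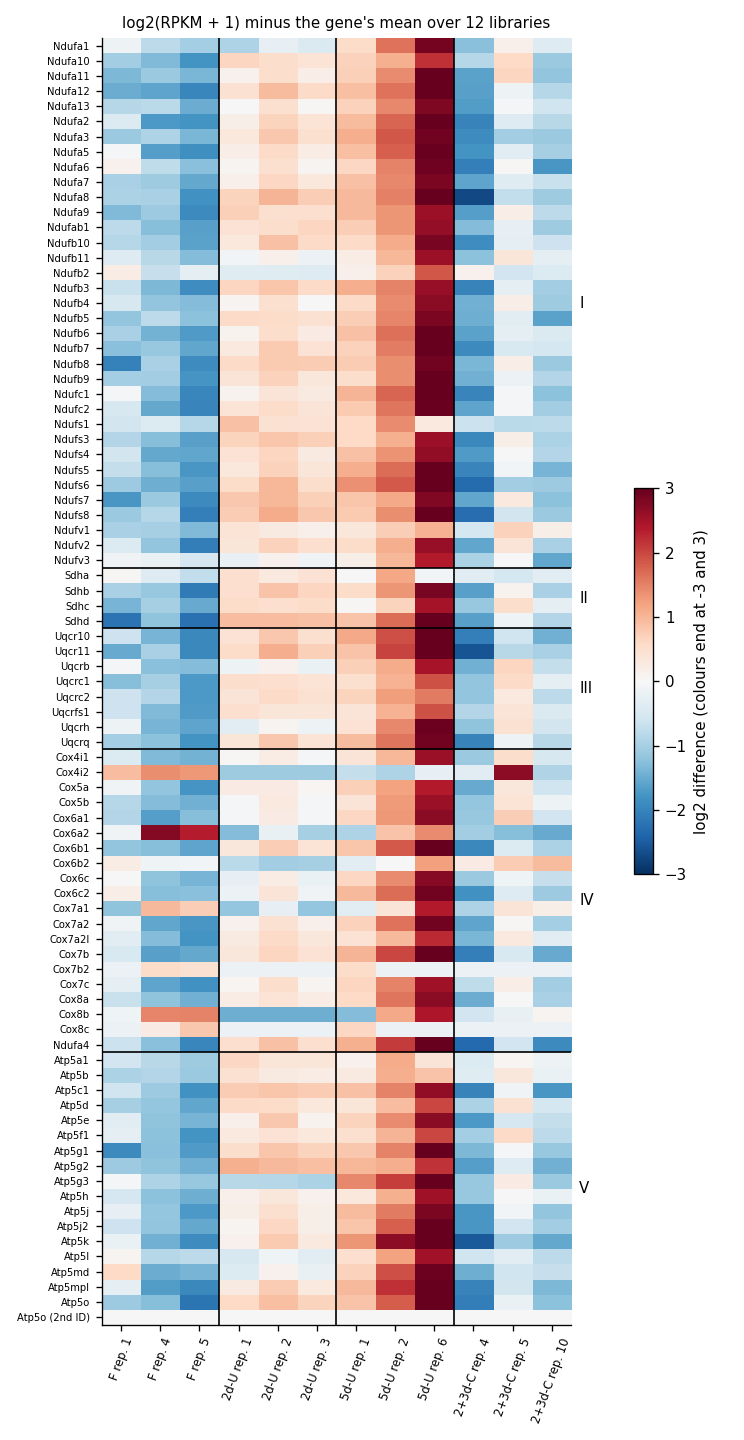
Level of each of 85 members in each of the 12 libraries as log2(RPKM + 1) minus the mean of the gene over all libraries, with rows by complex and colours that end at -3 and 3. The uncompressed cultures are red and F and 2+3d-C blue in most rows, 5d-U replicate 6 is the reddest column, and the rows that go another way in complex IV are Cox4i2, Cox6a2, Cox6b2, Cox7a1, Cox7b2, Cox8b and Cox8c.

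Complex V held the most abundant subunits of the set in F and 2d-U, Atp5b and Atp5a1, and, in Atp5k, the member with the largest fall that passed in 2+3d-C against 5d-U. Atp5b and Atp5a1 form the catalytic head. Atp5b had 276, 288 and 244 RPKM in F, 736, 643 and 627 RPKM in 2d-U, 639, 1135 and 962 RPKM in 5d-U, and 417, 680.2 and 465 RPKM in 2+3d-C. It rose in 2d-U (log2 fold change 1.31 ± 0.36, edgeR adjusted p = 0.0141), and in 2+3d-C it had log2 fold change -0.81 ± 0.36, edgeR adjusted p = 0.104 relative to 5d-U and 0.95 ± 0.36 relative to F. Atp5a1 had 248, 206 and 174 RPKM in F, 567, 469 and 472 RPKM in 2d-U, 399.7, 789 and 482 RPKM in 5d-U, and 274, 383 and 330.0 RPKM in 2+3d-C. It too rose in 2d-U (log2 fold change 1.27 ± 0.37, edgeR adjusted p = 0.0177) and had log2 fold change -0.76 ± 0.37, edgeR adjusted p = 0.122 in 2+3d-C against 5d-U, with overlap between 5d-U and 2d-U. Both rises were lost without F replicate 5 or any single 2d-U library, and that of Atp5a1 also without F replicate 4. The rotor shaft subunit Atp5c1 fell under compression (log2 fold change -2.92 ± 0.60, edgeR adjusted p = 0.00324), from 290.5, 442 and 992 RPKM in 5d-U against 38.1, 145 and 46 RPKM in 2+3d-C. Of the 5 small membrane subunits all fell in 2+3d-C against 5d-U, with a median of -3.43. Atp5k (ENSMUSG00000050856.16, mm10 chr5:108433244-108434448), the e subunit at the dimer interface, had 18.4, 7.24 and 4.96 RPKM in F, 23.3, 37.3 and 26.3 RPKM in 2d-U, 55, 142 and 239 RPKM in 5d-U, and 2.89, 9.4 and 6.66 RPKM in 2+3d-C. Compressed libraries were below 5d-U without overlap (log2 fold change -4.54 ± 0.74, edgeR adjusted p = 0.000706) and below 2d-U (log2 fold change -2.22 ± 0.67, edgeR adjusted p = 0.0265), the latter call being lost without 2d-U replicate 2 or 2+3d-C replicate 4. Atp5j2 had 46.7, 91.2 and 246 RPKM in 5d-U against 6.9, 16.8 and 11.9 RPKM in 2+3d-C (log2 fold change -3.43 ± 0.60, edgeR adjusted p = 0.00113). Atp5mpl had 54, 127 and 276 RPKM in 5d-U against 6.05, 18.2 and 9.93 RPKM in 2+3d-C (log2 fold change -3.74 ± 0.69, edgeR adjusted p = 0.00164).

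The c ring, the rotor through which protons pass, is built from a single protein that 3 genes encode with different import sequences. The genes followed different courses. Atp5g3 (ENSMUSG00000018770.9, mm10 chr2:73908447-73911326) had 132, 72.2 and 62.5 RPKM in F, 76.9, 75.1 and 70.3 RPKM in 2d-U, 377, 582 and 1303 RPKM in 5d-U, and 61.8, 163 and 63.1 RPKM in 2+3d-C. F, 2d-U and 2+3d-C overlapped, and 5d-U was above all of them. It rose from 2d-U to 5d-U (log2 fold change 3.35 ± 0.56, edgeR adjusted p = 0.0138), had -0.27 ± 0.51 in 2d-U against F, and fell in 2+3d-C against 5d-U (log2 fold change -2.97 ± 0.55, edgeR adjusted p = 0.00178). With the trend on mRNA length taken out, the rise was 1.88 ± 0.53 (edgeR adjusted p = 0.0527) and the fall -1.24 ± 0.52 (edgeR adjusted p = 0.0820), so that neither passed. Atp5g1 had 3.9, 6.67 and 4.62 RPKM in F, 25.6, 31.6 and 28.4 RPKM in 2d-U, 31.2, 50.9 and 153 RPKM in 5d-U, and 6.23, 16.8 and 7.41 RPKM in 2+3d-C. It rose in 2d-U against F (log2 fold change 2.50 ± 0.58, edgeR adjusted p = 0.00547) and fell in 2+3d-C against 5d-U (log2 fold change -2.95 ± 0.59, edgeR adjusted p = 0.00269). Atp5g2, with the NRF1 letters shown above, had 5.98, 5.38 and 4.46 RPKM in F, 30.2, 28.3 and 26.6 RPKM in 2d-U, 28.5, 30.5 and 65.2 RPKM in 5d-U, and 3.72, 10.2 and 4.47 RPKM in 2+3d-C. It rose in 2d-U against F (log2 fold change 2.43 ± 0.52, edgeR adjusted p = 0.00337), fell in 2+3d-C against 5d-U (log2 fold change -2.76 ± 0.52, edgeR adjusted p = 0.002) and fell in 2+3d-C against 2d-U (log2 fold change -2.22 ± 0.51, edgeR adjusted p = 0.00651), with a log2 fold change of 0.55 ± 0.49 in 5d-U against 2d-U. With the trend on mRNA length taken out the fall of Atp5g1 against 5d-U passed and that of Atp5g2 did not (edgeR adjusted p = 0.123).

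The share of Atp5g3 in the summed RPKM of the 3 genes, which does not depend on how libraries are scaled, was 93.1, 85.7 and 87.3 percent in F, 58, 55.6 and 56.1 percent in 2d-U, 86.3, 87.7 and 85.6 percent in 5d-U, while it was 86.1, 85.8 and 84.2 percent in 2+3d-C. The 2d-U libraries were thus apart from the 9 others, which lay between 84.2 and 93.1 percent. With 3 libraries against 3, an exact permutation test cannot give a p below 0.1, so no test is given. The level of these shares depends on the annotated exon lengths and, for Atp5g2, on reads shared with copies.

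**Figure D4:**
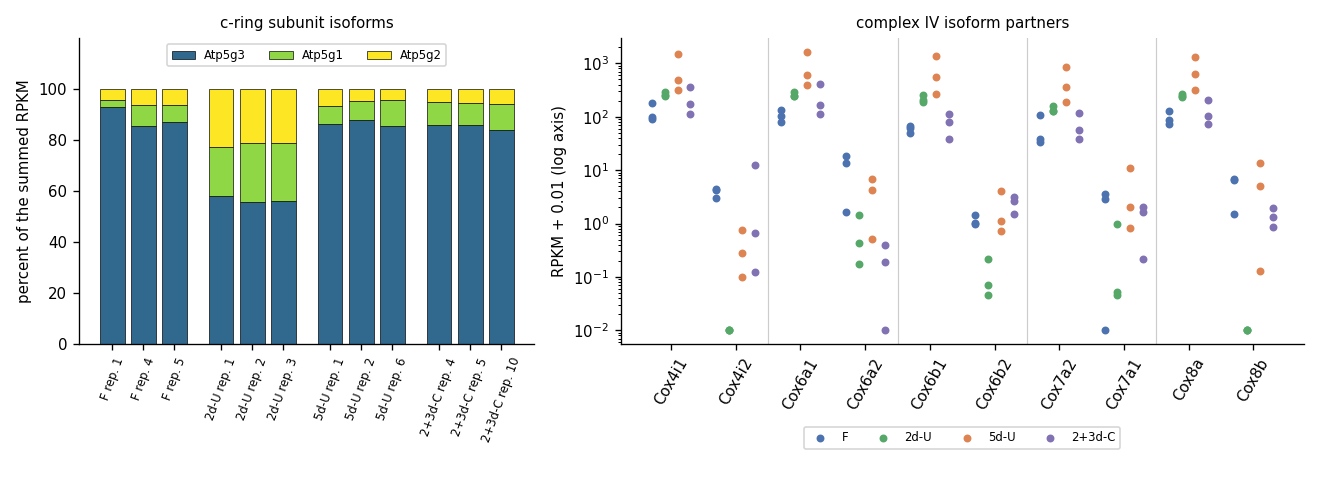
Left, share of Atp5g3, Atp5g1 and Atp5g2 in their summed RPKM for each library; right, RPKM + 0.01 on a log axis of general and alternative complex IV isoforms, with a point for each library coloured by group. Atp5g3 makes up 55.6 to 58.0 percent in 2d-U and at least 84.2 percent elsewhere, and the alternative isoforms Cox4i2 and Cox8b have no reads in 2d-U.

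The alternative complex IV isoforms were scarce in all groups. In 2d-U against F 4 of 6 tested fell while 4 of 11 general ones rose, and in 2+3d-C against 2d-U 3 of 6 rose while 2 of 11 general ones fell. In 5d-U against 2d-U the fold changes of both kinds were above 0, and in 2+3d-C against 5d-U no alternative isoform passed. Cox4i2, the isoform of lung and smooth muscle, had 56, 110 and 130 reads in F, 0, 0 and 0 reads in 2d-U, 5, 2 and 12 reads in 5d-U, and 27, 81 and 2 reads in 2+3d-C. It fell from F to 2d-U (edgeR adjusted p = 0.00666), and was at least 38.0-fold higher in F, counted against 3 reads in each 2d-U library. It rose from 2d-U to 2+3d-C (edgeR adjusted p = 0.00740), where replicate 5 had most of the reads. Cox8b, an isoform of heart and skeletal muscle, had 13, 74 and 95 reads in F, 0, 0 and 0 reads in 2d-U, 1, 52 and 102 reads in 5d-U, and 16, 4 and 15 reads in 2+3d-C. It fell from F to 2d-U (edgeR adjusted p = 0.00719, at least 22.1-fold) and rose from 2d-U to 2+3d-C (edgeR adjusted p = 0.0209, at least 6.10-fold) and to 5d-U (edgeR adjusted p = 0.0449), where replicate 1 had 1 read. The rise to 2+3d-C was lost without any single 2d-U library, and that to 5d-U without any single library of F or 2d-U or without 5d-U replicate 6. Cox6a2, another isoform of heart and skeletal muscle, had 27, 388 and 366 reads in F, 6, 25 and 13 reads in 2d-U, 8, 82 and 93 reads in 5d-U, and 14, 1 and 0 reads in 2+3d-C. It fell in 2d-U against F (log2 fold change -4.06 ± 1.44, edgeR adjusted p = 0.038) and in 2+3d-C against F (log2 fold change -5.77 ± 1.59, edgeR adjusted p = 0.0462), and F replicate 1 had far fewer reads than the other F libraries. The first of these calls was lost without F replicate 4 or 5, 2d-U replicate 1 or 3, or 5d-U replicate 6, and the second without F replicate 4 or 5, 5d-U replicate 2 or 6, or 2+3d-C replicate 5 or 10.

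Cox6b2, best known from testis, had 39, 33 and 44 reads in F, 12, 1 and 3 reads in 2d-U, 18, 35 and 91 reads in 5d-U, and 89, 24 and 75 reads in 2+3d-C. It fell in 2d-U against F (log2 fold change -3.43 ± 1.19, edgeR adjusted p = 0.0347) and rose in 2+3d-C against 2d-U (log2 fold change 4.50 ± 1.25, edgeR adjusted p = 0.0172), and its share of the summed RPKM of Cox6b1 and Cox6b2 was 2.26 to 3.82 percent in 2+3d-C against 0.201 to 0.294 percent in 5d-U. The fall was lost without F replicate 4 or 5, any single 2d-U library or 5d-U replicate 6, and the rise without 2d-U replicate 2 or 3, while with no filter on low counts neither passed. Cox7a1, of heart and skeletal muscle, had 0, 59 and 60 reads in F, 1, 13 and 1 reads in 2d-U, 10, 31 and 120 reads in 5d-U, and 6, 9 and 19 reads in 2+3d-C and passed in no comparison. Cox7b2 and Cox8c had reads in F replicates 4 and 5 and 5d-U replicate 1 alone, the 3 libraries with the most reads on silent families. Cox6a2, Cox7a1 and Cox8b had most reads in the libraries with the highest sums of the myofiber list, F replicates 4 and 5 and 5d-U replicates 2 and 6, whose part in these results was not tested. The general partners Cox4i1, Cox6a1, Cox6b1, Cox7a2 and Cox8a made up over 80 percent of the RPKM of each pair in every library, with Cox6a1 lowest at 81.0 percent in F replicate 4.

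Genes that build or run the same complexes moved with the subunits in most lists. Of 16 complex I assembly factors tested 10 fell in 2+3d-C against 5d-U, of 4 for complex II 3, of 6 for complex III 5, of 22 for complex IV 12 and of 5 for complex V 5, whereas 1 rose (13.4 and 9.14 percent of all genes). In 2d-U against F 12, 2, 5, 9 and 4 of them rose and none fell (10.6 and 33.3 percent of all genes). The log2 fold changes of Tmem126b, Ndufaf5, Ndufaf7, Sdhaf4 and Cmc2 were below that of Atp5k. Tmem126b, a complex I assembly factor, had 7.62, 11.7 and 18.2 RPKM in 5d-U against 0.237, 0.407 and 0.0192 RPKM in 2+3d-C (log2 fold change -5.88 ± 0.86, edgeR adjusted p = 0.000334) and was also lower in 2+3d-C than in F (log2 fold change -2.80 ± 0.76, edgeR adjusted p = 0.0437), a call lost without F replicate 4 or 5, 5d-U replicate 2 or 6, or 2+3d-C replicate 4 or 10. Ndufaf5 and Ndufaf7 modify complex I subunits during assembly. The former had log2 fold change -5.65 ± 0.84, edgeR adjusted p = 0.000355, and the latter log2 fold change -4.78 ± 0.61, edgeR adjusted p = 0.000115. Sdhaf4, which helps to mature Sdha, had 24, 53.3 and 181 RPKM in 5d-U against 0.15, 2.48 and 1.15 RPKM in 2+3d-C (log2 fold change -6.20 ± 1.05, edgeR adjusted p = 0.00096). The complex III factors Uqcc2 and Uqcc3 fell (log2 fold change -4.06 ± 0.63, edgeR adjusted p = 0.000522, and log2 fold change -4.39 ± 0.68, edgeR adjusted p = 0.000471). Ttc19, a complex III factor that clears fragments of the Rieske protein, was the exception, at 22, 8.02 and 9.02 RPKM in F, 9.09, 8.35 and 7.72 RPKM in 2d-U, 11.9, 12 and 12.6 RPKM in 5d-U, and 30.9, 62.2 and 37.7 RPKM in 2+3d-C. It rose in 2+3d-C against 5d-U (log2 fold change 1.84 ± 0.45, edgeR adjusted p = 0.00924) and against F (log2 fold change 1.75 ± 0.45, edgeR adjusted p = 0.0358), and compressed libraries lay above all others. The rise against F was lost without F replicate 4 or 5, 2d-U replicate 1 or 2, or 2+3d-C replicate 5 or 10. The complex IV factors Cmc2 and Coa3 fell (log2 fold change -5.21 ± 0.66, edgeR adjusted p = 0.000119, and log2 fold change -3.81 ± 0.69, edgeR adjusted p = 0.00144), as did Atpaf2, the chaperone of the ATP synthase alpha subunit (log2 fold change -3.02 ± 0.50, edgeR adjusted p = 0.000778), and Atpif1, the inhibitor of the synthase (log2 fold change -3.91 ± 0.70, edgeR adjusted p = 0.00135).

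Electron carriers and carriers of ATP and phosphate followed in part. Of 19 tested 7 fell in 2+3d-C against 5d-U (13.4 percent of all genes) and 12 rose in 2d-U against F (10.6 percent of all genes). Coq9, needed for ubiquinone synthesis, had 22.5, 27.8 and 39.8 RPKM in 5d-U against 2.3, 2.33 and 0.762 RPKM in 2+3d-C (log2 fold change -4.06 ± 0.55, edgeR adjusted p = 0.000184). Dhodh, which feeds electrons from pyrimidine synthesis to ubiquinone, had 13.8, 14.3 and 11.4 RPKM in 5d-U against 1.04, 0.267 and 0.447 RPKM in 2+3d-C (log2 fold change -4.47 ± 0.57, edgeR adjusted p = 0.000119). The ADP/ATP carrier Slc25a4 fell (log2 fold change -2.29 ± 0.51, edgeR adjusted p = 0.00545), whereas its relative Slc25a5, more abundant here, had 864, 910.3 and 2152 RPKM in 5d-U against 514, 2115 and 983 RPKM in 2+3d-C (log2 fold change -0.12 ± 0.53). Of 18 other mitochondrial proteins 9 fell (13.4 percent of all genes), among them the outer membrane channel Vdac1 (log2 fold change -2.47 ± 0.41, edgeR adjusted p = 0.000794), the cristae protein Chchd3 (log2 fold change -2.27 ± 0.37, edgeR adjusted p = 0.000758) and the chaperone Hspd1 (log2 fold change -1.52 ± 0.39, edgeR adjusted p = 0.0129). Hspa9, the mitochondrial Hsp70, had 0.05 ± 0.42. With the trend on mRNA length taken out the falls of Slc25a4, Chchd3 and Hspd1 did not pass, and that of Hspd1 was also lost without 2+3d-C replicate 4 or 10.

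Subunits encoded in the mitochondrial genome took a different course. Of 10 tested 7 fell in 2d-U against F, with a median of -3.46, 7 rose in 5d-U against 2d-U, with a median of 4.97, and 6 rose in 2+3d-C against 2d-U, with a median of 2.97. The shares of all genes were 33.3, 1.87 and 16 percent. Between 5d-U and 2+3d-C 2 fell, with a median of -2.18 (13.4 percent of all genes). Reads were very uneven over these genes. In a library mt-Co2 had 1 to 258 reads, mt-Co3 2 to 196 and mt-Atp6 2 to 246, whereas mt-Co1 had 3484 to 124282. The cause was not tested, and the counts and medians over the list are uncertain to that extent. mt-Co1, the catalytic subunit of complex IV, had 1195, 598 and 759.5 RPKM in F, 57, 95.9 and 49.9 RPKM in 2d-U, 3493, 396 and 636 RPKM in 5d-U, and 364, 740.2 and 637 RPKM in 2+3d-C. The 2d-U libraries were the lowest and 5d-U replicate 1 the highest. mt-Co1 fell in 2d-U against F (log2 fold change -3.65 ± 0.72, edgeR adjusted p = 0.00221) and rose in 2+3d-C against 2d-U (log2 fold change 3.10 ± 0.71, edgeR adjusted p = 0.00586). mt-Cytb, the cytochrome b of complex III, had 2172, 705 and 1278 RPKM in F, 151, 250.1 and 95.2 RPKM in 2d-U, 12732, 1073 and 4343 RPKM in 5d-U, and 688, 1379.5 and 1716 RPKM in 2+3d-C. It rose in 5d-U against 2d-U (log2 fold change 5.19 ± 0.83, edgeR adjusted p = 0.0118) and fell in 2+3d-C against 5d-U (log2 fold change -2.26 ± 0.73, edgeR adjusted p = 0.0384), as did mt-Nd1 of complex I (log2 fold change -2.57 ± 0.73, edgeR adjusted p = 0.0206). Both falls no longer passed without 5d-U replicate 1 or without 2+3d-C replicate 4, and that of mt-Cytb also without F replicate 1 or 2+3d-C replicate 5 or 10, and neither passed with the trend on mRNA length taken out. From F to 2d-U, then, 49 nuclear members rose while 7 of these 10 mitochondrial genes fell.

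Regulators of respiratory genes did not move as a group. Of 14 tested 2 rose and 3 fell in 2+3d-C against 5d-U, with a median of 0.42, where 9.14 percent of all genes rose and 13.4 percent fell, so that the counts are near the background and the values below are those of single genes. Ppargc1b, a coactivator of nuclear respiratory factors, had 99, 236 and 171 reads in F, 1046, 117 and 620 reads in 2d-U, 265, 285 and 138 reads in 5d-U, and 0, 0 and 0 reads in 2+3d-C. The compressed libraries had no read, so that, set against 3 reads in each of them, the level was lower by at least 50.8-fold than 5d-U, 68.6-fold than 2d-U and 28.8-fold than F, and the fall passed against 5d-U (edgeR adjusted p = 0.000161) in every alternative setting run. Its relative Ppargc1a had 25, 149 and 203 reads in F, 43, 40 and 0 reads in 2d-U, 215, 253 and 154 reads in 5d-U, and 104, 0 and 0 reads in 2+3d-C and passed in no comparison. Esrra, a nuclear receptor that works with these coactivators, had 0.435, 2.08 and 1.33 RPKM in F, 5.62, 6.6 and 9.61 RPKM in 2d-U, 3.75, 8.12 and 3.92 RPKM in 5d-U, and 0.623, 0.22 and 0.364 RPKM in 2+3d-C. It fell in 2+3d-C against 5d-U (log2 fold change -3.68 ± 0.72, edgeR adjusted p = 0.00245). Tfb1m, which acts on mitochondrial ribosomal RNA, also fell (log2 fold change -3.36 ± 0.89, edgeR adjusted p = 0.0151). The coactivator Pprc1 and Gabpb1, a subunit of the factor that binds the ETS element, rose (log2 fold change 3.28 ± 0.66, edgeR adjusted p = 0.00287, and log2 fold change 1.69 ± 0.44, edgeR adjusted p = 0.0124). The calls of Tfb1m and Gabpb1 were lost without 5d-U replicate 6. Gabpb1 had 39.9, 16.5 and 15.7 RPKM in F, 8.98, 8.46 and 7.04 RPKM in 2d-U, 7.31, 8.39 and 6.81 RPKM in 5d-U, and 21, 33.8 and 18.1 RPKM in 2+3d-C, with F and 2+3d-C above the uncompressed cultures. For the DNA-binding factors themselves the log2 fold changes in 2+3d-C against 5d-U were 0.32 ± 0.47 for Nrf1, 0.53 ± 0.49 for Gabpa and 0.96 ± 0.52 for Yy1, and none of them passed. Tfam, Tfb2m, Polrmt and Mterf3, which transcribe or regulate mitochondrial DNA, had 0.59 ± 0.49, 0.78 ± 0.44, -0.06 ± 0.62 and -0.17 ± 0.48, and did not pass either. Esrrg had 0 reads in 2d-U and 1.22 ± 1.97 in 2+3d-C against 5d-U, with 202 of its reads in 2+3d-C replicate 4.

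The fold changes followed the length of the mRNA in 2+3d-C against 5d-U and in 5d-U against 2d-U. The members have short mRNAs, with a median of 755 nt and a range of 360 to 3171 nt over the 83 with an annotated coding transcript (GENCODE vM21). In 2+3d-C against 5d-U the median log2 fold change was -2.82 for 26 members under 600 nt, -2.83 for 28 from there to under 1000 nt, -2.57 for 12 to under 1500 nt, -1.68 for 13 to under 2500 nt and -1.68 for 4 of 2500 nt or more. Other protein-coding genes in the same range of levels showed the same order, with medians of -1.91, -1.77, -1.30, -0.43 and 0.37. From 2d-U to 5d-U the medians went from 1.79 to 0.60 over the members and from 1.42 to 0.21 over the others. Across genes, which are not independent, Spearman's rho between length and fold change was 0.41 (n = 83 members) and 0.28 (n = 11665 others) in 2+3d-C against 5d-U, and -0.68 and -0.15 in 5d-U against 2d-U. In 2d-U against F it was 0.23 for members and -0.32 for the others, in 2+3d-C against F 0.393 and -0.182, in 5d-U against F -0.171 and -0.405, and in 2+3d-C against 2d-U 0.006 and 0.215, so that the relation differed between comparisons and between members and other genes. The members lay below other genes of their own length in 2+3d-C against 5d-U in all 5 bins, and above them in 2d-U against F. Atp5a1, Atp5b, Sdha, Ndufv1 and Ndufs1, whose log2 fold changes in 2+3d-C against 5d-U were -0.54 to -1.73, have mRNAs of 2471, 1916, 2900, 1661 and 2626 nt. Not all members with long mRNAs had small falls. Atp5g1, with an mRNA of 2675.5 nt, had a log2 fold change of -2.95 in that comparison. Ndufab1, with an mRNA of 2447.5 nt, still fell there with the trend on mRNA length taken out.

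**Figure D5:**
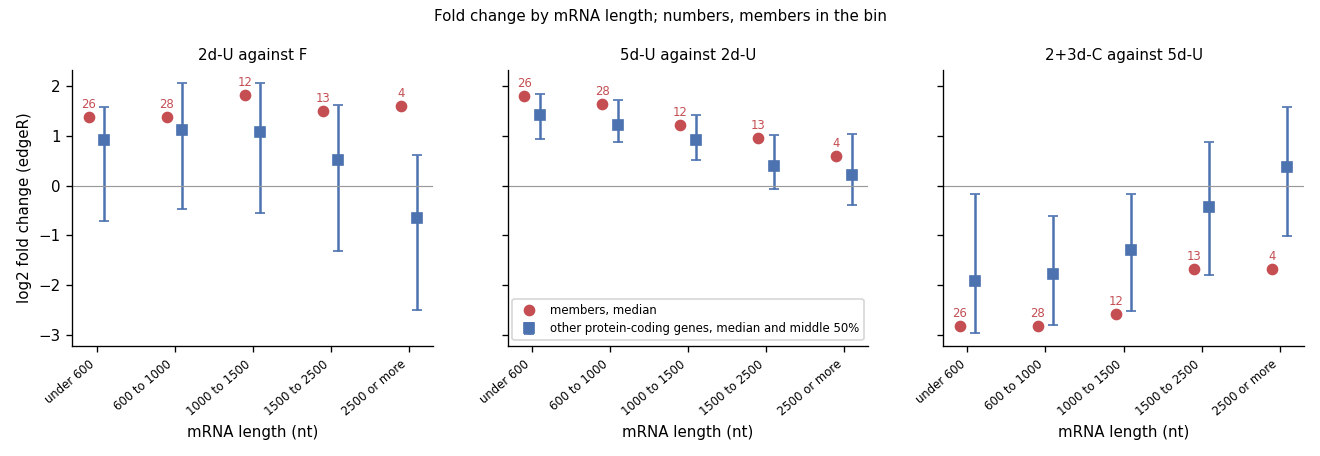
Median log2 fold change of members (circles, with their number) and of other protein-coding genes in the same range of levels (squares, with bars for the middle 50 percent) in 5 bins of mRNA length, for 3 comparisons. In 2+3d-C against 5d-U both series climb with length, from -2.82 to -1.68 for members and from -1.91 to 0.37 for the others.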

How the data were processed

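RNA of 12 libraries (4 groups of 3) had been sequenced with single-end reads of 75 bases from full-length cDNA. The authors deposited a table of read counts per gene for each library, made with featureCounts 1.6.4 on mm10 exons of GENCODE without regard to strand, and the aligner is not given in the sources used here. A merged table and the authors' own comparisons were not used. The members, gene lists and tests were chosen with earlier results of these data known, so that no pattern here is independent support for those results. Groups came from the labels, and the numbers of the replicates were not used to pair libraries, since the sources do not say which libraries share a sort. Same-numbered libraries had correlations of -0.424 to 0.0322 between their deviations from the group means. Such values cannot show that these libraries came from different sorts.

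Counts were scaled by TMM, filtered with filterByExpr and fitted with edgeR 4.0.16 (quasi-likelihood test, limma 3.58.1, R 4.3.3) in 1 model of the 12 libraries, with all 6 comparisons between groups adjusted over 22635 genes. RPKM used the exon length given with the counts. A fold against libraries with 3 or fewer reads was set as a bound against 3 reads in each, which covers counting error only. Depth was 12540745 to 62424851 reads on genes, so that 3 reads correspond to 0.0481 to 0.239 CPM. Genes were named by complex: the 3 members with the highest level and with the smallest p in each of 3 comparisons, all isoform partners, every regulator, and the 3 highest and 3 with the smallest p of each other list; any other member could be named. The values of 1 member are not reported here, though it stays in all counts and medians. Promoters came from RefSeq and mRNA lengths from GENCODE. The fitting scripts were tested on simulated data. Alternatives were DESeq2 1.42.0, other filters and scalings, subtraction of or a model term for reads on silent gene families, a replicate block, leaving out single libraries and, chosen after seeing the data, leaving out F replicates 4 and 5 or 5d-U replicates 2 and 6 and removing a trend on mRNA length.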

Additional observations from a re-analysis of the deposited data

How the results depend on the processing

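In 2+3d-C against 5d-U the 70 calls became 6 without 5d-U replicates 2 and 6, 21 with the trend on mRNA length removed and 46 to 75 when single libraries were left out. For 2+3d-C against 2d-U the 19 calls became 33 with DESeq2, 62 with library size without TMM, 31 with no filter on low counts, 32 with silent-family reads subtracted, 33 without 5d-U replicates 2 and 6 and 4 to 38 when single libraries were left out. For 2+3d-C against F the 1 call became 2 with DESeq2, 0 with genes of at least 5 CPM on average, with silent-family reads subtracted, with the model term for such libraries or without F replicates 4 and 5, and 0 to 2 when single libraries were left out. With the trend on mRNA length removed there were 12, of which 11 were higher and had not been called in the main fit. Cox6a2 stayed lower. The percent of all genes called was 6.4 in the main fit and 22.3 with that trend removed. In 5d-U against 2d-U the 2 calls became 18 with DESeq2, 10 with no filter, 1 with library size without TMM, with silent-family reads subtracted, without F replicates 4 and 5 or without 5d-U replicates 2 and 6, 0 with the model term or the trend on mRNA length removed, and 1 to 19 when single libraries were left out. In 2d-U against F the 53 calls became 17 with the model term, 2 without F replicates 4 and 5 and 10 to 69 when single libraries were left out. In 5d-U against F the 76 calls became 5 without F replicates 4 and 5, 13 without 5d-U replicates 2 and 6, and 68 to 76 when single libraries were left out. Fits that left 1 library in a group assume that it varies like the other groups, and other causes of these changes were not tested. In the other alternatives the counts stayed within 1.5 times. The percent of all genes called, in both directions together, also moved. In 2+3d-C against 5d-U it was 22.6 in the main fit and 25.9 with the trend on mRNA length removed. In 2+3d-C against 2d-U it was 24.6 in the main fit, 36 with DESeq2 and 25.1 with library size without TMM. In 5d-U against 2d-U it was 2.12 in the main fit and 14.3 with DESeq2.

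Whether libraries of the same number share a sort is not given, no correlation between their deviations was over 0.1, and they were not treated as pairs. With a replicate block the calls were 0 in 2+3d-C against 5d-U, 0 in 2+3d-C against 2d-U, 1 in 2+3d-C against F, 1 in 5d-U against 2d-U, 3 in 2d-U against F (1 higher and 2 lower) and 3 in 5d-U against F. In that fit the median in 2+3d-C against 5d-U was -0.86 over the members and -1.905 over all genes, of which 16.9 percent were called. Only 4 numbers occur in more than 1 group, which leaves few residual degrees of freedom. None of them is shared by 2+3d-C with 5d-U or 2d-U, so that in the block fit these comparisons run through F. For single genes 3 values reversed, all in 2+3d-C against 5d-U: Ndufv1 to 0.46 and Atp5b to 0.032 on the log2 scale with the trend on mRNA length removed, and Cox4i1 to 0.18 with the replicate block. Of the other comparisons of a named gene with an alternative, 1941 kept their direction and side of the threshold, 253 no longer passed and 19 newly passed.

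Depth limited the alternative complex IV isoforms, which had 0 to 388 reads in a library. Levels depend on merged exon lengths, and those of members with near-identical copies are uncertain.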
